A study of Mus musculus with 2 samples.

Results

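Gene-desert regions were the accessible regions that lay farthest from genes in mouse common myeloid progenitors, the bone marrow cells from which erythroid, megakaryocytic, granulocytic and monocytic lineages arise. A region belonged here when its summit, the base with the highest signal, was outside every protein-coding gene body and more than 100 kb from every protein-coding transcription start in GENCODE M21. On chromosomes 1 to 19 this rule found 5288 of 65789 regions, 8.04% (Wilson 95% interval 7.83 to 8.25), after overlapping peaks had been merged. Positions chose these regions and their signal did not. They are called desert regions below, and a desert is the gap between 2 neighbouring protein-coding genes, named by those genes.

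The cells were primary cells of C57BL/6J male mice aged 5 to 6 weeks, and 50000 cells went into each of 2 ATAC-seq libraries, labelled biological replicates 1 and 2 of 1 group. ATAC-seq uses a transposase that cuts and tags open DNA. No treatment, mutant or second cell type was part of the series, so desert regions were compared with intergenic regions 5 to 100 kb from a start (17461 regions, 26.5%) and between the replicates. Both libraries carry 1 donor label and the labels do not name the mice behind each, so differences between them may be technical. The lists hold peaks and no read counts, so depth is unknown. Tests run over regions, which are not independent replicates, and cover counting error only. The label fitted its markers: 9 of 9 progenitor genes with a value, among them Kit, Cd34, Runx1 and Spi1, had a region within 1 kb of a start, against 0 of 4 mature neutrophil genes, 1 of 4 T cell genes and 2 of 4 B cell genes. Of the stromal and endothelial genes 3 of 4 had one (Cdh5, Col1a1 and Pdgfrb), and of the liver and neuron genes 1 of 3 (Snap25). The part of other cells in the results was not tested.

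Gene deserts are long stretches with no protein-coding gene. Many of them flank genes of transcription factors and receptors, and enhancers inside them can act on a start far away by looping of the chromatin. In blood cells such distant enhancers are commonly bound by PU.1, RUNX, GATA and C/EBP factors, whereas CTCF marks many loop anchors. An accessible region is a candidate for any of these, and accessibility alone names neither its function nor its target gene.

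The windows below show motif matches in sequence at deserts the results turn on, and are not typical desert regions. Each is the 101 bases around the summit of the strongest region of that desert that matched PU.1, RUNX, GATA, AP-1, NF-E2 or CTCF, on the + strand of GRCm38 (mm10). Capitals mark the match on either strand. The letters sought were GAGGAAGT for PU.1, an ETS factor of myeloid cells. RUNX factors of progenitors were sought as TGTGGTT. For GATA factors, of the erythroid and megakaryocytic lineages, they were AGATAA. AP-1 was TGANTCA, which also lies within the NF-E2 motif GCTGAGTCA. CTCF was sought by its core.
Myc to Gsdmc, chr15:63679081-63679181: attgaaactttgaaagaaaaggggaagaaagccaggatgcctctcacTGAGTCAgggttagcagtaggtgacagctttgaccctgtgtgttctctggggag
Kit to Kdr, chr5:75762092-75762192: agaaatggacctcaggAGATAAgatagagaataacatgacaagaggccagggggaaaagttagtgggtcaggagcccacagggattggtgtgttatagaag
Runx1 to Setd4, chr16:93147658-93147758: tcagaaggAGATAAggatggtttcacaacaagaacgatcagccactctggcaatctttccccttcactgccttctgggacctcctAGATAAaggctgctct
Id2 to Rnf144a, chr12:25438508-25438608: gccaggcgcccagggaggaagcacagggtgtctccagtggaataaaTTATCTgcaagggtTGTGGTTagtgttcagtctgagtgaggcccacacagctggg
Zeb2 to Acvr2a, chr2:45859584-45859684: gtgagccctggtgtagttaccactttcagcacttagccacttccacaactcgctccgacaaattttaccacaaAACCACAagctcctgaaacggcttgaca
Nr5a2 to Ptprc, chr1:137560477-137560577: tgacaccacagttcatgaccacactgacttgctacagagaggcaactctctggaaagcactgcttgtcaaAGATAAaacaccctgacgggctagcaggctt
Gm11361 to Sox4, chr13:28701455-28701555: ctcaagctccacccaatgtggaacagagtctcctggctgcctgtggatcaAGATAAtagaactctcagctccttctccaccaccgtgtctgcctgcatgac
Foxo1 to Cog6, chr3:52555180-52555280: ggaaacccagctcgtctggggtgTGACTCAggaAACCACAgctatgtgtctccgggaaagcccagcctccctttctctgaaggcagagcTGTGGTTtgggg
Gm5426 to Btg1, chr10:96471678-96471778: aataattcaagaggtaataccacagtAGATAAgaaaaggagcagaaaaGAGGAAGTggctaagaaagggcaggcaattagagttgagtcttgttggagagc
Klf14 to Mkln1, chr6:31284566-31284666: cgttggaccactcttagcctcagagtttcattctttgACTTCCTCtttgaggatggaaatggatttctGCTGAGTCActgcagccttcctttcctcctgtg
Dusp6 to Csl, chr10:99615937-99616037: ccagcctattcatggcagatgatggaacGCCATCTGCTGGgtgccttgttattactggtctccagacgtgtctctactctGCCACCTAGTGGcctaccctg
Olfr1507 to Dad1, chr14:53407674-53407774: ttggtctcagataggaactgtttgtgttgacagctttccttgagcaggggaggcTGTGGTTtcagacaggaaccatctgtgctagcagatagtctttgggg

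These windows were chosen for a match and held 1 to 3 each. Of all desert regions, 3564 (67.4%) matched none of PU.1, ETS, RUNX, GATA and CTCF. The Runx1 window had 2 GATA matches, the Foxo1 window 2 RUNX matches and 1 AP-1 match, and the Csl window 2 CTCF matches. The Id2 window joined a GATA and a RUNX match, and the Btg1 window a GATA and a PU.1 match. The Sox4 window was 92.1% soft-masked repeat. The 32 bases at the summit of the Olfr1507 to Dad1 window occurred 2 times in the genome.

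Desert regions lay a median of 189 kb from the nearest start (quartiles 135 and 295 kb), and the farthest lay 2140 kb away. The territory that meets the rule covered 737 Mb, 30.8% of the sequenced bases of these chromosomes, so desert regions numbered 7.18 per Mb of it, against 36.5 per Mb elsewhere, a ratio of 0.197. By distance, density was 36.8, 30.3 and 22.1 per Mb at 5 to 20, 20 to 50 and 50 to 100 kb, then 14.6 at 100 to 150 kb, 12.6 at 150 to 200 kb, 8.69 at 200 to 300 kb, 4.72 at 300 to 500 kb, 2.66 at 500 to 1000 kb and 1.25 beyond. In the first 5 kb inside the limit there were 257 regions, 18.5 per Mb, with a median signal of 8.44, and in the last 5 kb outside it 298 regions, 20.6 per Mb, with 8.48.

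**Figure D1:**
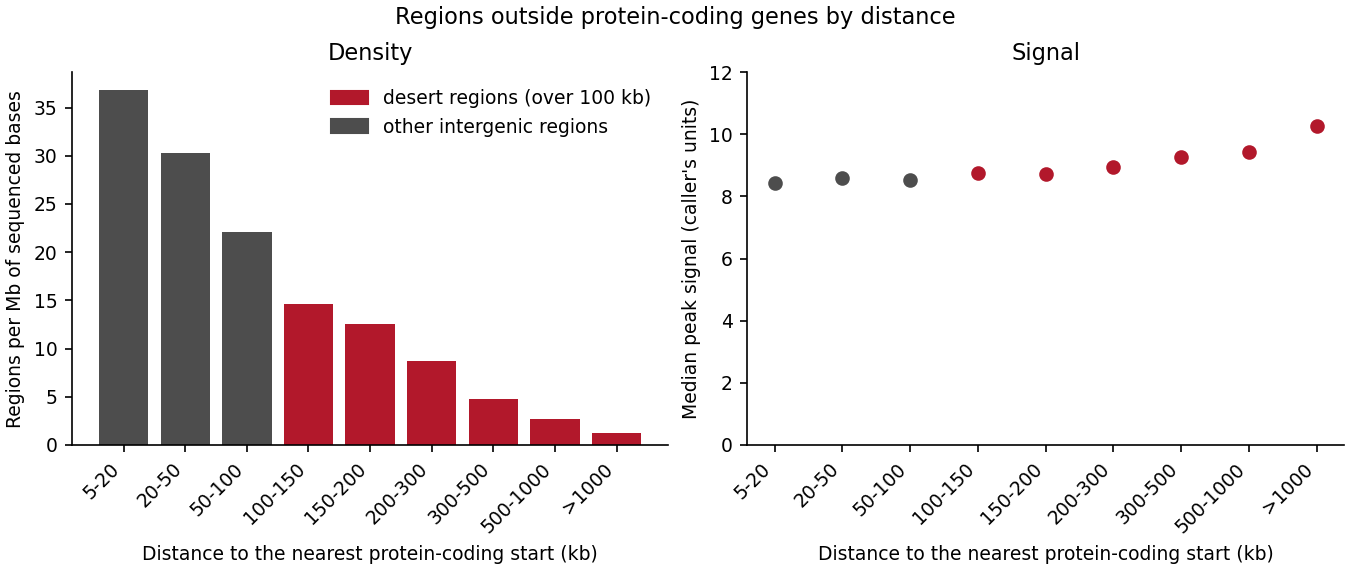
Regions outside protein-coding genes by distance to the nearest protein-coding start (kb, classes of unequal width). Left, bars give regions per Mb of sequenced bases in that class, from 36.8 at 5 to 20 kb to 1.25 beyond 1000 kb. Right, points give the median peak signal in the caller's units, from 8.45 to 10.3. Red marks desert regions and grey the other intergenic regions.

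Regions that were rarer with distance did not have lower signal. The signal is the peak caller's own value per peak, whose scale is not stated, and serves here only to rank regions of 1 list. Desert regions had a median signal of 8.91 (quartiles 7.05 and 11.5), against 8.54 at intergenic regions (6.68 and 10.9), a log2 difference of 0.061. The median -log10 p of the peaks went the other way, 39.6 against 40.7. Beyond 1000 kb the median of 95 regions was 10.3. In both replicates' longer pseudoreplicated lists 4881 of the desert regions and 16355 of the intergenic ones were met. With the signals of those lists, these desert regions had medians of 8.23 in replicate 1 and 8.18 in replicate 2. The intergenic ones had 7.84 and 7.87. Both replicates were read at the same regions, so these are not separate checks. Across these desert regions the signals of the replicates ranked alike, with Spearman's rho of 0.874 (0.882 at intergenic regions). That correlation is across regions of 2 libraries and carries no p.

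Desert regions were mostly outside any annotated gene. At 4233 summits (80.05%) there was no gene of any kind, at 994 (18.8%) a long noncoding RNA gene, at 48 a pseudogene and at 8 an antigen receptor segment. Receptor segments annotated as pseudogenes count as pseudogenes here, but as segments in the counts per locus below. In the replicates' own lists, against which counts below are to be read, 63.3% of desert regions were found for replicate 1 and 50.02% for replicate 2, with 67.9% and 54.9% over all regions. In both own lists at once were 45.3% of desert regions and 50.6% of all regions. Of all desert regions, 230 lay within 1 kb of the start of a long noncoding RNA gene. These recurred more often: 71.7% were in replicate 1's own list and 62.6% in that of replicate 2, against 62.9% and 49.4% of the rest, a difference noticed in the data and not tested. Of desert summit windows 2.95% were mostly repeat-masked, against 4.04% at intergenic summits. Copied summits went the other way. The 32 bases at the summit occurred more than once in the genome for 190 desert regions (3.59%), against 2.69% of intergenic regions and 1.97% of all.

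Regions were spread over many deserts and concentrated in few. Of 1720 gaps with territory, 1070 (62.2%) held a desert region, with a median of 3 where there was any. The 156 gaps with 10 or more held 2535, 47.9% of the total. At the other end, 36 of the 208 gaps with at least 1 Mb of territory held none, up to 3.82 Mb. Desert regions also followed each other closely: 482 chains, in which neighbours were at most 20 kb apart, had 3 or more members and held 2122 regions (40.1%), and 2016 regions stood alone.

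Antigen receptor loci held the most. The desert from Olfr1507 to Dad1 on chromosome 14 (52495750 to 54235478) lies at the T-cell receptor alpha locus and holds 201 annotated receptor segments. It held 95 desert regions. Of these, 64 were in replicate 1's own list and 41 in that of replicate 2. The desert from Adam6a to Zfp386 on chromosome 12 (113546466 to 116047723) lies in the immunoglobulin heavy chain locus and holds 197 segments. It held 74 desert regions, of which 44 were in replicate 1's own list and 28 in that of replicate 2. Lymphocytes rearrange these segments to build their antigen receptors. All 8 gaps with segments held 195 desert regions, 25.6 per Mb, against 6.98 per Mb in the other gaps. Near-identical copies make these counts uncertain, because reads can be split between copies: the 32 bases at the summit occurred elsewhere in the genome for 101 of the 195 regions, against 89 of the 5093 others. At Olfr1507 to Dad1, 74 of 95 summits were such copies, and 21 regions were left without them. CTCF matched at 31 of the 195 summits (15.9%), against 6.48% of the others. Of the 195, 64.1% were in replicate 1's own list, against 63.3% of the others, and 41.0% in that of replicate 2, against 50.4%. Neither difference was tested.

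Outside the receptor loci, the other 8 of the 10 deserts with the most regions held 28 to 38. Adgrl2 to Adgrl4, between 2 adhesion receptor genes, held 38 in 2.25 Mb of territory. Id2 to Rnf144a held 36, and Id2 is an inhibitor of basic helix-loop-helix factors. Gadd45g to Diras2 held 31, and Gadd45g is a stress-induced gene of growth arrest. Gm11361 to Sox4 and Zeb2 to Acvr2a held 29 each, and Sox4 and Zeb2 encode transcription factors of blood progenitors. Serp2 to Lacc1, Kif2a to Ndufaf2 and Agtr1b to Tbl1xr1 held 28 each, and Tbl1xr1 is a subunit of corepressor complexes. Kif2a to Ndufaf2 contains Zswim6, which counted as a long noncoding RNA gene in this annotation. Whether that gap is free of protein-coding genes therefore depends on the annotation. Zeb2 to Acvr2a spread its regions over 3.50 Mb, 8.29 per Mb, while Gm11361 to Sox4 packed as many into 0.496 Mb, 58.4 per Mb.

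**Figure D2:**
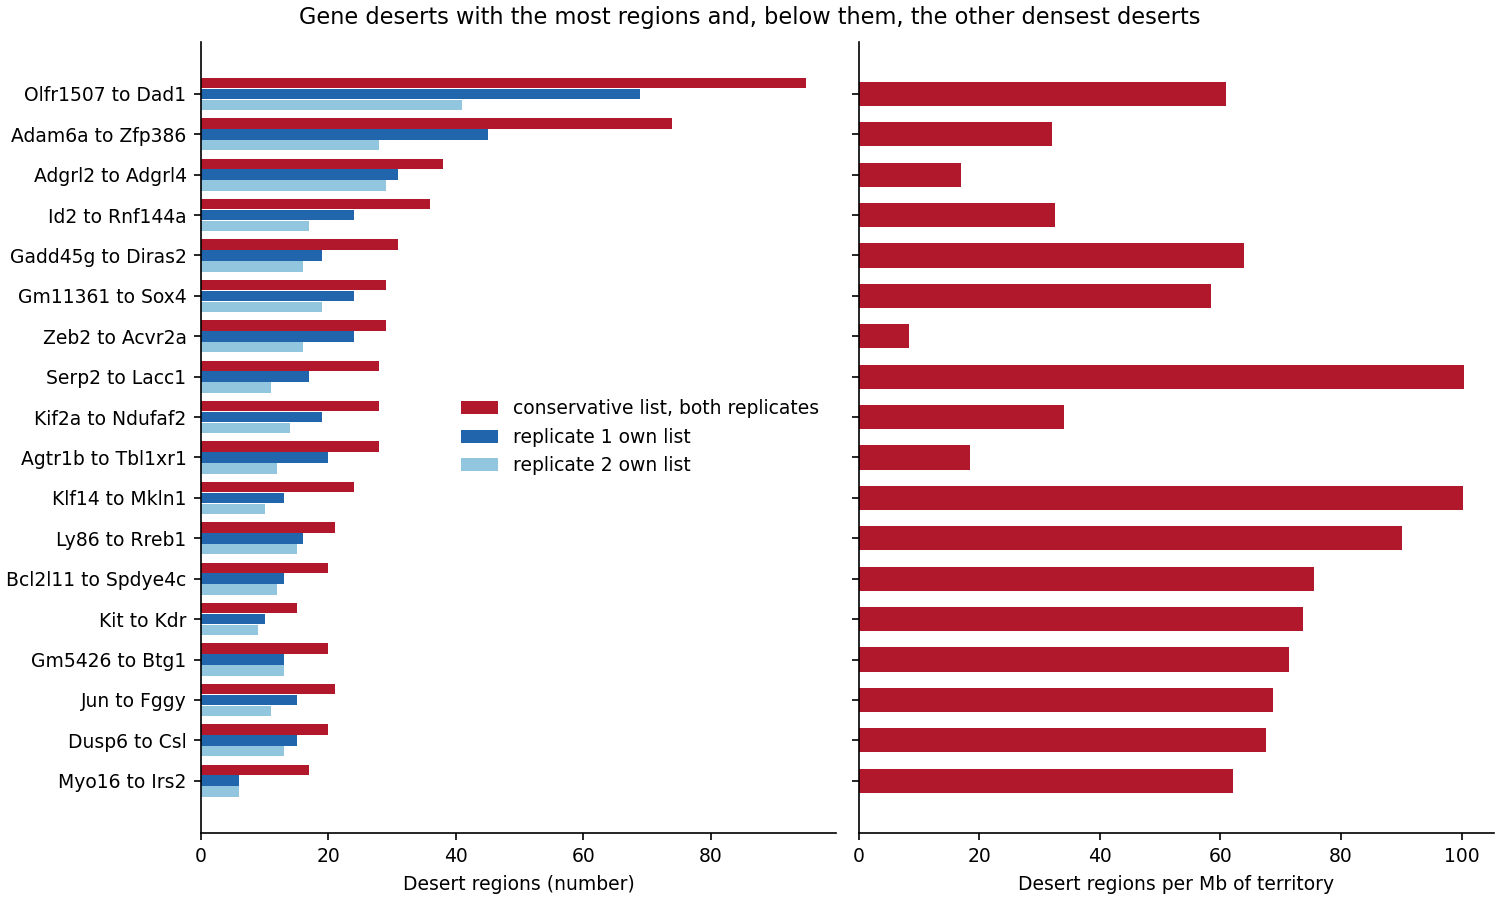
The 10 deserts with the most desert regions and, below them, the other 8 of the 10 densest, named by their flanking genes. Left, bars give the number of desert regions in the conservative list of both replicates (red), replicate 1's own list (dark blue) and replicate 2's own list (light blue). Right, bars give desert regions per Mb of territory. Olfr1507 to Dad1 leads by number with 95, and Serp2 to Lacc1 by density with 100.3 per Mb.

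Density picked out shorter deserts. Among the 297 gaps with at least 5 desert regions and 0.2 Mb of territory the median was 16.8 per Mb. Serp2 to Lacc1 had 100.3 per Mb and Klf14 to Mkln1 100.1. Ly86 to Rreb1 had 90.1, between Ly86, a partner of the Toll-like receptor relative CD180, and Rreb1, a zinc finger transcription factor. Bcl2l11 to Spdye4c had 75.4, and Bcl2l11 encodes the death-promoting protein Bim. Kit to Kdr, between the stem cell factor receptor and a receptor for vascular endothelial growth factor, had 73.7. Gm5426 to Btg1 had 71.3 (Btg1 restrains proliferation), Jun to Fggy 68.8 (Jun is an AP-1 subunit), Dusp6 to Csl 67.5 (Dusp6 dephosphorylates ERK), Gadd45g to Diras2 64.0 and Myo16 to Irs2 62.1 (Irs2 relays insulin signals). Of shorter territory, Haao to Zfp36l2 reached 120.5 and Irf2bp2 to Tomm20 112.0 per Mb, beside genes of an RNA-decay factor and a transcriptional corepressor.

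High density and high signal did not always go together. At Klf14 to Mkln1 the median signal was 6.73, with 13 of 24 desert regions (54.2%) in replicate 1's own list and 10 (41.7%) in that of replicate 2, below the 63.3% and 50.02% of all desert regions. At Serp2 to Lacc1 it was 7.51, with 17 (60.7%) and 11 (39.3%) of 28. Myo16 to Irs2 had a median of 6.82 and 6 of 17 (35.3%) in each list, although its strongest region reached 20.02. At Adgrl2 to Adgrl4, by contrast, the median was 9.39, with 30 (78.9%) and 28 (73.7%) of 38, and at Nr5a2 to Ptprc 11.5, with 16 (76.2%) and 13 (61.9%) of 21. These departures were not tested. The longest chain was at Klf14 to Mkln1, with 23 regions in 182 kb, and 21 of the 24 desert regions there lay in long noncoding RNA genes, with 4 within 1 kb of the start of Lncpint or 2210408F21Rik. At Gm11361 to Sox4, 27 of 29 lay in such genes, and at Bcl2l11 to Spdye4c 20 of 20.

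Deserts next to a list of 69 blood regulators were rarely empty. Of the 68 list genes found in the annotation of these chromosomes, 42 flanked a desert, at 55 gaps, and 54 of these gaps held a desert region (98.2%). They held 619 regions, 17.7 per Mb. Against them, 49 of 69 gaps (71.0%) next to a list of 61 regulators of other tissues, such as Sox2, Pax6 and Shh, held 216 regions, 3.95 per Mb. Gaps with neither list held a region in 967 of 1596 cases (60.6%), 6.88 per Mb. Over all gaps it was 62.2% and 7.18 per Mb. Territory per gap was alike for both lists, with medians of 0.481 and 0.529 Mb, and smaller with neither, 0.177 Mb. The blood list was written with results of these data known, so its counts are a description with no test. Regions of blood-flanked gaps did not stand out in strength: the median signal was 8.91 there, 9.60 beside regulators of other tissues and 8.91 with neither. CTCF matched at 3.55% of them, against 8.33% and 7.21% in the other gaps, and RUNX at 10.8%, against 8.80% and 10.4%.

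At Myc, the growth-promoting transcription factor, the desert to Gsdmc held 20 regions in 2 groups. The nearer 10 lay 119 to 416 kb from the start of Myc, with a median signal of 8.39, and 3 of them were in the own lists of both replicates. The farther 10 lay 1513 to 1719 kb away, with a median of 11.5, and 8 were in both lists. Of all desert regions 45.3% were in both lists. The difference between the 2 groups was not tested. A blood enhancer cluster is known far downstream of Myc in mouse. Of the 9 regions 1616 to 1719 kb away, 8 were in both lists, and the window printed above lies among them at 1694 kb, with signals of 11.8 in replicate 1 and 12 in replicate 2. Most regions of this desert (19 of 20) lay in long noncoding RNA genes, and the 1 within 1 kb of such a start was at Pvt1. Upstream, A1bg to Myc held 6, of which 2 were in replicate 1's own list and 1 in that of replicate 2, none in both.

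**Figure D3:**
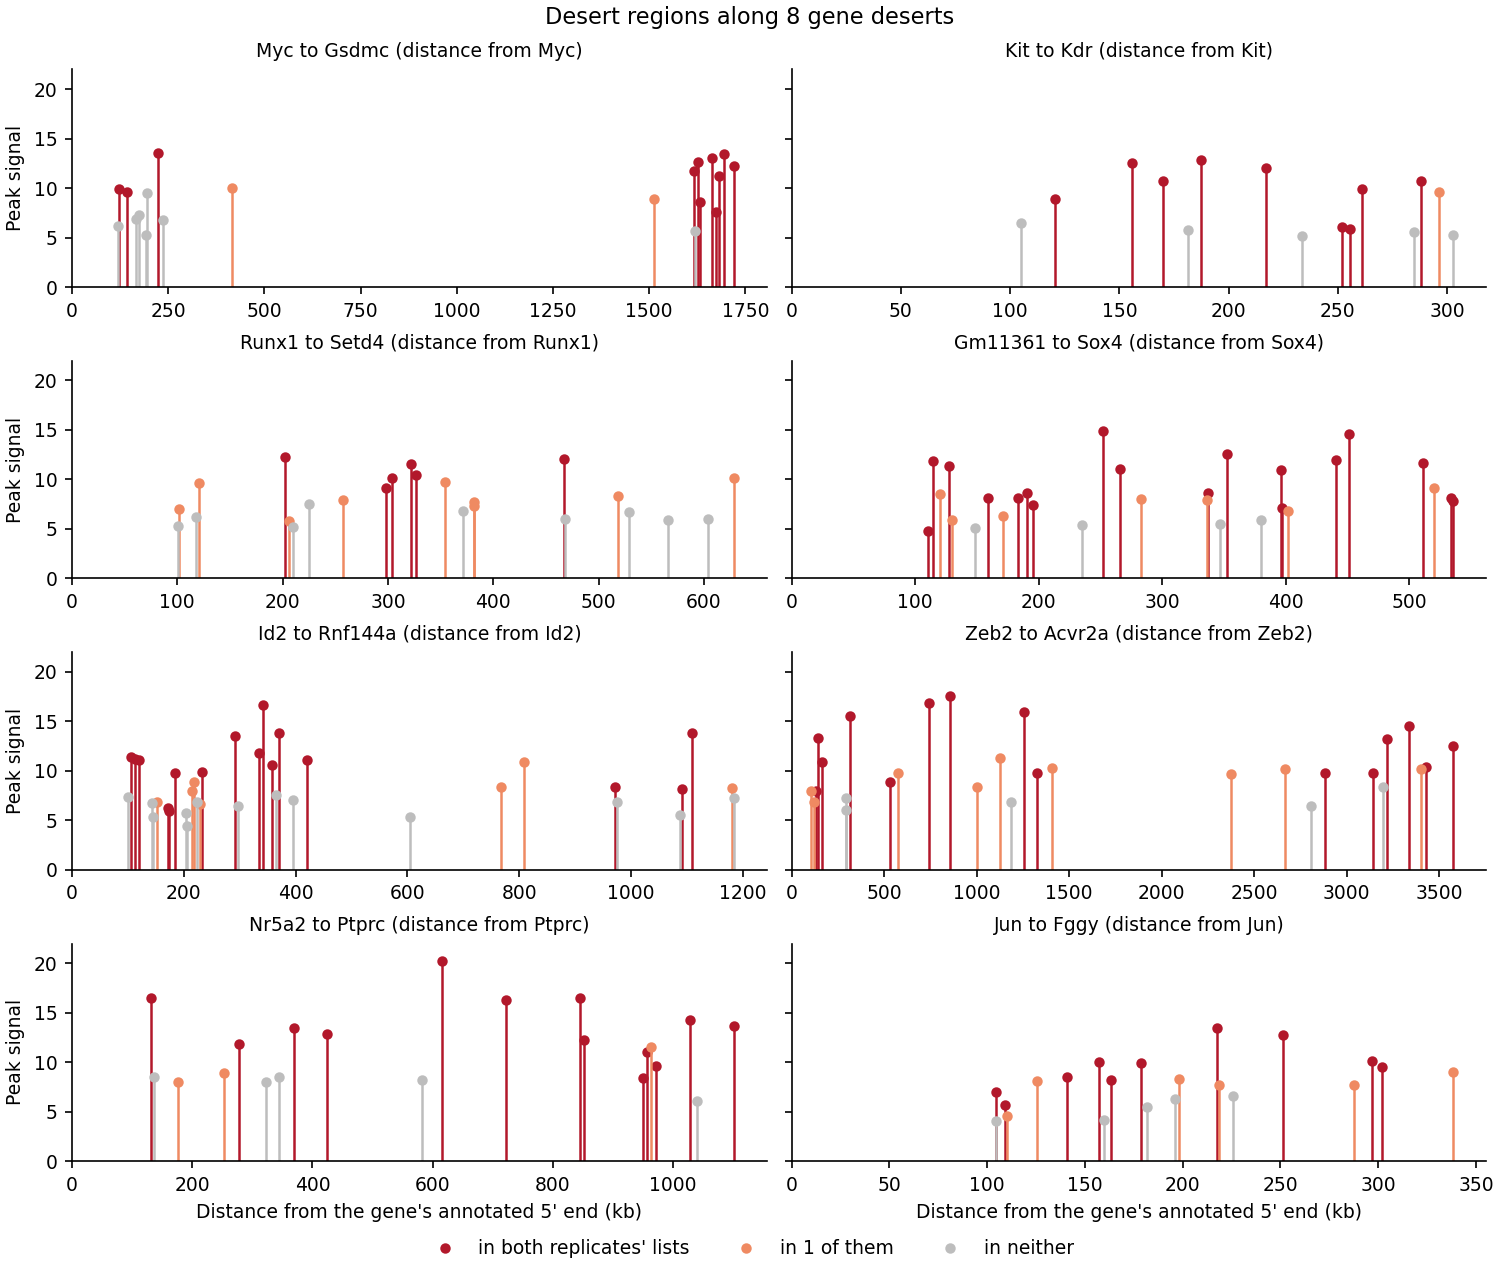
Desert regions along 8 deserts, each set out by distance (kb) from the annotated 5' end of 1 flanking gene. The height of a stem is the peak signal in the conservative list. Red regions were in the own lists of both replicates, orange in 1 of them and grey in neither. Beside Myc the regions form 2 groups, at 119 to 416 kb and at 1513 to 1719 kb.

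Desert regions also lay beside other progenitor genes. Kit to Kdr held 15 from 105.2 to 302.9 kb beyond the start of Kit, 9 of them in both own lists. Its strongest had a signal of 13.3 in replicate 1 and 10.8 in replicate 2 and carried the GATA match shown above. The desert on the other side, Pdgfra to Kit, held 6, the nearest 114 kb from the start of Kit. Runx1 to Setd4 held 24 from 100.9 to 628 kb from the annotated 5' end of Runx1, with 13 in replicate 1's own list and 8 in that of replicate 2. Id2 to Rnf144a reached from 100.7 to 1184 kb beside Id2, with 23 and 16 of 36. Along Zeb2 to Acvr2a regions lay from 103 to 3577 kb from Zeb2, with 23 and 16 of 29. Nr5a2 to Ptprc, beside the gene of the pan-blood phosphatase CD45, held 21 up to 1101 kb from Ptprc, and its strongest, 20.2, had 18.2 and 18.8 in the replicates.

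Fam49a to Mycn and Pkn2 to Lmo4 held 25 each, Bcl11a to 5730522E02Rik 24, Jun to Fggy 21 and Cetn3 to Mef2c 20. Meis1, a HOX cofactor of stem cells, had 14 on one side and 8 on the other. The chemokine receptor gene Cxcr4 had 10, of which 8 were in both own lists, and Tet2, which encodes a DNA demethylase, had 9, of which 5 were. Plxna2 to Cd34, beside the gene of a progenitor surface marker, held 1 in only 0.0219 Mb of territory. Egfem1 to Mecom, beside the gene of a stem cell factor, held 1. That region lay 818 kb from Mecom and 216 kb from Egfem1, and was missing from replicate 2's own list. Cebpb to Ptpn1 had 3 in only 0.0434 Mb of territory.

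Mitochondrial look-alikes were among the strongest desert regions. On chromosome 6 the strongest of all (9889880 to 9890223, between Nxph1 and Ndufa4) had a signal of 35.2, with 31.2 in replicate 1 and 33.3 in replicate 2, and 311 bp of it matched the mitochondrial genome at 95.8% identity. The second, on chromosome 5 (60042657 to 60043142), had 31.1 and matched at 97.9% over 383 bp. The fourth, on chromosome 12 (97061373 to 97061851), had 28.2 and matched at 99.7% over 365 bp. In all, 10 desert regions matched, of 25 such regions in the whole list, and 5 of the 10 stood side by side between Ptprd and Tyrp1. Mitochondria hold no chromatin and give many reads in ATAC-seq, so the source of these reads is uncertain. Of the other 7 in the strongest 10, the third, between Gm31371 and Gm15319, had 30.6, and the seventh, between Dach1 and Rpl36a-ps1, had 25.5. The fifth, between Eno1b and Dtwd2, had 27.4, the sixth, between Rgmb and Zfp960, 25.8, and lay 63 bases from the start of the noncoding gene BC002059. The eighth was the region printed above from Olfr1507 to Dad1, with 25.05, followed by Hpcal1 to 5730507C01Rik with 24.8 and Gm4070 to Gvin1 with 24.7. Some of these 7 also had repeated sequence, so their reads may be split between copies. The sequence at the summits of Gm31371 to Gm15319, Olfr1507 to Dad1 and Gm4070 to Gvin1 occurred 2 times in the genome. The summit window of Dach1 to Rpl36a-ps1 was 51.5% repeat-masked. Among the strongest 528 desert regions 35 summits were copied, against 190 among all 5288. All of the strongest 10 were in the own lists of both replicates.

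Most of the 5 most remote regions were not low in signal either. The farthest lay 2140 kb from a start, on chromosome 1 between Cntnap5b and Cdh20 (102628172 to 102628386), with a signal of 15.03, 11.9 in replicate 1 and 14.1 in replicate 2. The next, 1812 kb away between Pcdh7 and G6pd2, had 19.4, and the third, 1805 kb away between Cntnap5b and Cdh20, had 24.2. The fourth was the mitochondrial look-alike on chromosome 5. The fifth, 1763 kb away between Sel1l and Flrt2, had 7.42 and was missing from replicate 2's own list. The other 4 were in both lists.

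Recurrence in the replicates was slightly lower in deserts. Of the desert regions, 63.3% (3347) were met by a region of replicate 1's own list, against 65.9% of intergenic regions, a difference of -2.61 percentage points (log2 odds -0.16, Fisher's exact test, two-sided, p = 0.000503, adjusted p = 0.00251). Of all regions, 67.9% were. In replicate 2's own list it was 50.02% (2645), against 52.0%, a difference of -1.94 points (log2 odds -0.11, Fisher's exact p = 0.0137, adjusted p = 0.0342), with 54.9% over all regions. Both own lists held 45.3%, against 46.9% (Fisher's exact p = 0.0457, adjusted p = 0.0761), with 50.6% over all regions. The p-values were adjusted by Benjamini-Hochberg over the 5 comparisons of recurrence, which share regions. The call for replicate 1 was lost in the pseudoreplicated lists (log2 odds -0.29, exact p = 0.0664), and that for replicate 2 with the series IDR-thresholded list (log2 odds -0.073, exact p = 0.119). The conservative list was derived from both replicates, so it is not independent of the replicates' own lists. Starting from the replicates' own lists, no difference was detectable: 68.9% of 3509 desert regions of replicate 1 were found in replicate 2, against 68.9% of intergenic ones (exact p = 0.95, adjusted 0.95), and 89.9% of 2688 of replicate 2 in replicate 1, against 89.8% (exact p = 0.913, adjusted 0.95). The interval of the log2 odds was -0.11 to 0.12 in the first case and -0.19 to 0.22 in the second. Within 10 equal classes of signal the log2 odds were -0.35 and -0.31, both past the threshold by the Mantel-Haenszel test, and in the replicates' longer pseudoreplicated lists they were -0.23 and -0.29, both past it by Fisher's exact test. With equally many of the strongest regions of both replicates the directions parted: -0.14 (exact p = 0.0431) for replicate 1's regions and 0.48 (exact p = 2.6e-08) for those of replicate 2.

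The difference varied with signal. With all regions ranked by signal and split into 3 equal groups, the weakest group had 17.1% of its desert regions in replicate 1's own list, against 28.3% of intergenic regions, and in the middle class 59.1%, against 69.0%. In the strongest class it was 95.6%, against 95.9%. In replicate 2's own list the shares were 9.44% against 16.8%, 36.4% against 46.7% and 87.4% against 88.7%, so that the gap was widest in the middle class. In the strongest class both shares are near the most they can reach. Within 10 equal classes of signal the log2 odds were -0.71 for replicate 1 and -0.61 for replicate 2. At equal signal, however, desert regions also had lower -log10 p values from the peak caller, with medians of 20.3, 33.2 and 67.4 from the weakest to the strongest class, against 22.9, 37.1 and 70.5. Within 10 equal classes of -log10 p, an alternative chosen after seeing the data, the log2 odds were -0.024 for replicate 1 and 0.017 for replicate 2, neither past the threshold by the Mantel-Haenszel test.

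**Figure D4:**
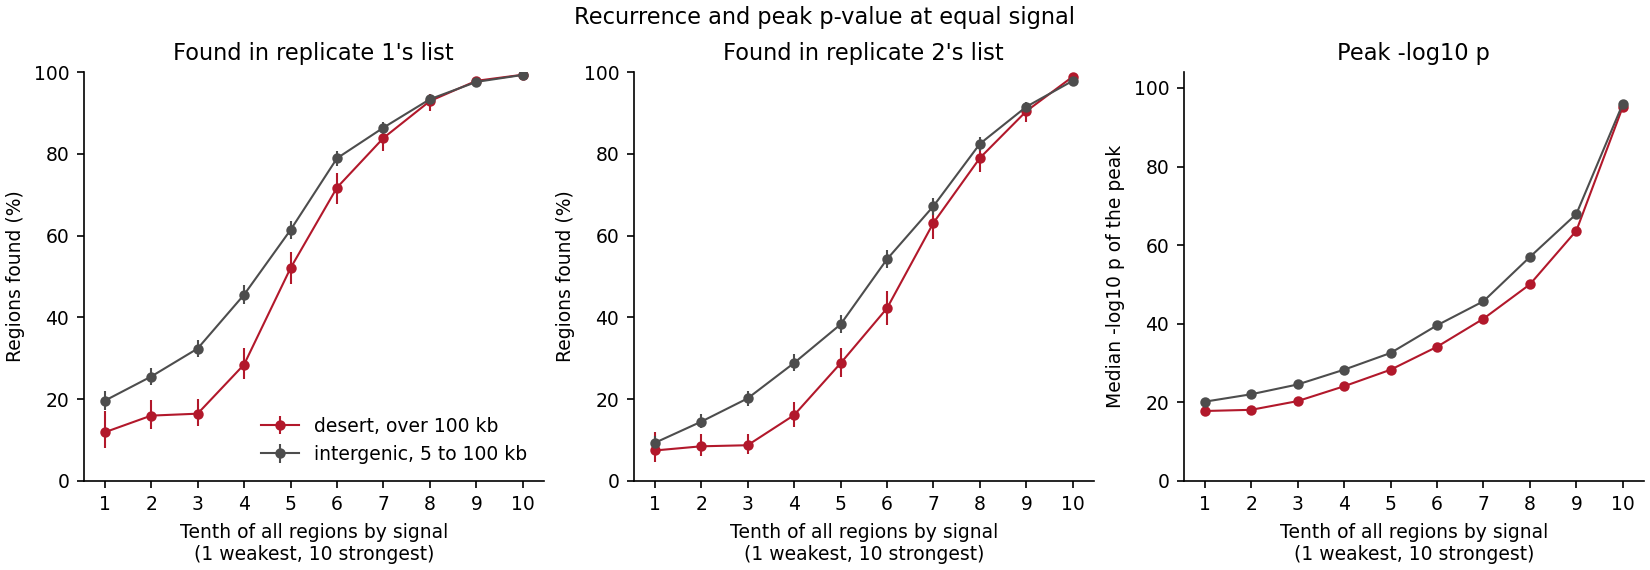
Desert regions (red) and intergenic regions 5 to 100 kb from a start (grey) in 10 equal classes of all regions by signal, weakest to strongest. The first 2 panels give the percentage found in the own list of each replicate, with 95% Wilson intervals, and the third the median -log10 p of the peak. In class 3, 16.4% of desert regions were in replicate 1's list, against 32.4% of intergenic regions, and in class 10 it was 99.4%, against 99.3%.

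Sequence at the summits set desert regions apart from intergenic ones. Of 19 motifs sought within 50 bp of the summit, 6 were more frequent and 3 less frequent in deserts (Fisher's exact test, two-sided, Benjamini-Hochberg over the 19 motifs). GATA matched at 9.57% of desert summits, against 7.30% (log2 odds 0.43, adjusted exact p = 1.3e-06), and at 6.85% of all regions. RUNX matched at 10.4%, against 8.16% (log2 odds 0.39, adjusted exact p = 2.4e-06), and at 7.29% of all. PU.1 matched at 8.15%, against 6.63% (log2 odds 0.32, adjusted exact p = 0.00065), and at 5.99% of all. CTCF was the reverse, at 6.83%, against 9.04% (log2 odds -0.44, adjusted exact p = 1.7e-06), and at 6.56% of all. Its share did not fall steadily with distance. It was 10.2% at 5 to 20 kb, 9.02% at 20 to 50 kb and 7.15% at 50 to 100 kb. In deserts it was 7.48% at 100 to 150 kb, 5.70% at 200 to 300 kb, 9.60% at 500 to 1000 kb and 8.42% beyond. SP, the GC box GGGCGG of promoters, was at 3.50%, against 6.01% (log2 odds -0.82, adjusted exact p = 3.1e-12), and at 12.4% of all. These 5 calls held under all 11 alternatives run, but not their size. Within 5 classes of GC content the log2 odds were 0.24 for GATA, 0.23 for RUNX and -0.30 for SP (largest adjusted p of the 3 = 0.0458, Mantel-Haenszel test). Beyond 200 kb GATA had 0.27, and beyond 50 kb SP had -0.51.

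The other 4 calls were less steady. HOX with MEIS (TGATTNAT, 0.739% of all regions) was at 1.38%, against 0.893% (adjusted exact p = 0.0074), PU.1 with IRF (GGAANNGAA, 4.16% of all) at 5.65%, against 4.46% (adjusted exact p = 0.0014), and IRF (GAAANNGAA, 3.30% of all) at 4.25%, against 3.52% (adjusted exact p = 0.033). REST (GGNGCTGTC, 0.991% of all) was at 0.586%, against 0.997% (adjusted exact p = 0.011). All 4 calls were lost within classes of GC content, where the largest adjusted p was 0.623; the median GC content of the window was 49.5% in deserts, against 51.5%. A further 10 motifs did not pass: ETS (CCGGAAGT), C/EBP (TTGCNNAA), AP-1, NF-E2, STAT (TTCNNNGAA), KLF (CCACACCC), NFY (CCAAT), YY1 (AANATGGC), NFI (TTGGCA) and E-box (CAGCTG), which matched between 0.865% and 13.1% of all regions. Of these, 6 passed under some alternative. Within GC classes E-box was more frequent and NFY less frequent in deserts, and NFY was also less frequent without repeated and mitochondrial summits. Beyond 50 kb AP-1 and E-box were more frequent. Within 100 bp of the summit C/EBP was more and KLF less frequent, and in replicate 1's own list NFI was more and KLF less frequent. PU.1 with IRF and IRF share letters, as do PU.1 and ETS. A match describes letters, and no factor was measured.

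**Figure D5:**
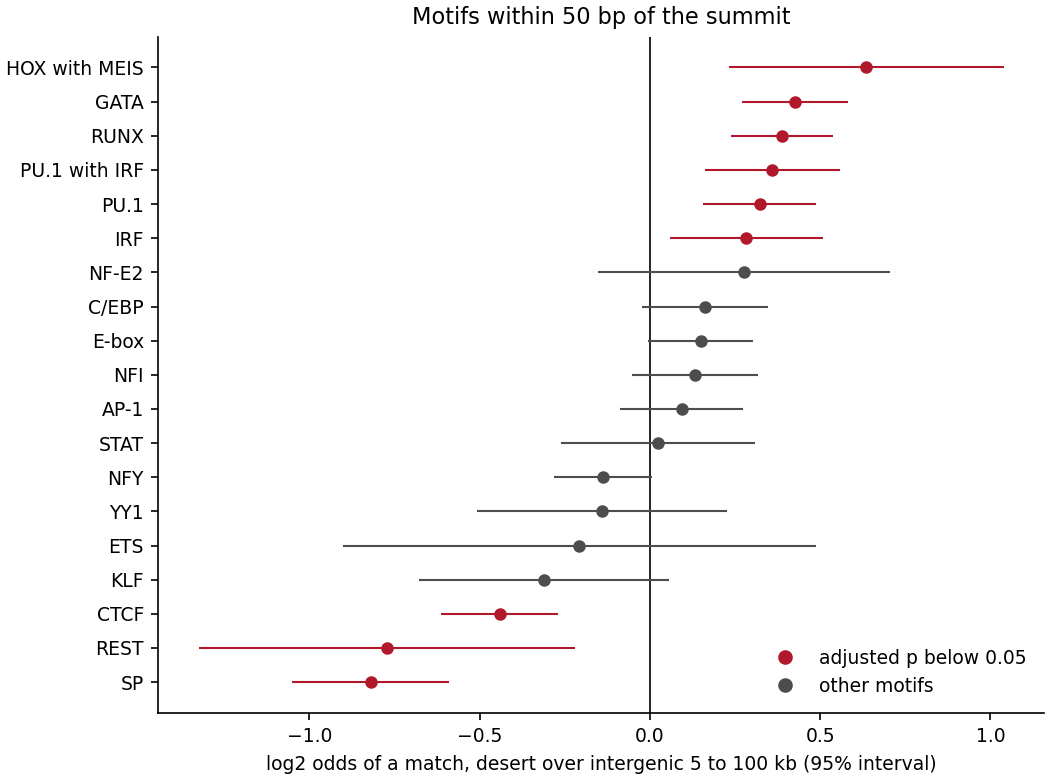
log2 odds of a motif match within 50 bp of the summit, desert regions over intergenic regions 5 to 100 kb from a start, with 95% intervals, for 19 motifs. Red points have an adjusted p below 0.05. GATA (0.43), RUNX (0.39) and PU.1 (0.32) lie above 0, CTCF (-0.44) and SP (-0.82) below.

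Matches were uneven among desert regions themselves. A PU.1, ETS, RUNX or GATA match was found at 1388 summits (26.2%), CTCF without any of them at 336 (6.35%), and both kinds at 25. In the strongest 528 by signal RUNX matched at 14.2% and CTCF at 7.58%, and in the weakest 528 at 7.20% and 3.79%. Neither set of counts was made over all regions or intergenic ones, so these values are not read as particular to deserts. Desert regions with a CTCF match had a higher median signal than those without, 9.46 against 8.91, yet 41.8% of them were in replicate 2's own list, against 50.6% of those without. In replicate 1's own list the shares were 63.7% and 63.3%. By Fisher's exact test, two-sided and chosen after these values were seen, the log2 odds were -0.51 (p = 0.00128) for replicate 2 and 0.028 (p = 0.91) for replicate 1. These p-values are nominal, because they are not adjusted for picking CTCF among the motifs, and no conclusion is drawn from them. Gaps with receptor segments were included and hold 31 of the CTCF matches. No such comparison is given for intergenic regions, so the difference is not read as particular to deserts. For RUNX both lists went the same way: 66.4% of regions with a match were in replicate 1's own list, against 62.9% without, and 58.6% were in that of replicate 2, against 49.0%. The differences for RUNX were also picked out after the values were seen and were not tested.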

How the data were processed

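The deposited files used here are peak lists on mm10. The aligner, peak caller and any read shift for the transposase were not given in the sources used here. Per the notes deposited beside the files, a replicate's lists derive from its alignments and series lists from those of both. Each deposited peak has a signal value of unstated scale and a -log10 p. Depth is unknown. Wilson 95% intervals of shares cover counting error over regions only, and neither depth nor the spread between libraries.

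Overlapping peaks of the conservative IDR-thresholded list (peaks kept by the irreproducible discovery rate) were merged on chromosomes 1 to 19, keeping the strongest summit, and set against GENCODE M21 on GRCm38.p6, the build of the files. Deserts were gaps between merged protein-coding gene bodies. Regions recurred when they met a region of a replicate's own IDR-thresholded list by at least 1 bp. Motifs were whole-consensus matches on either strand. Summits counted as copied when their 32 bases occurred more than once, and regions as mitochondrial when blastn 2.17.0 matched at least 100 bp at 80% identity. Shares were compared by Fisher's exact test, and within strata by Mantel-Haenszel (Python 3.11.15, SciPy 1.17.1, statsmodels 0.14.6). The methods were tested on simulated data.

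Named were the 10 deserts with the most regions, the 10 densest, the 10 strongest and 5 farthest regions, and deserts beside blood-list genes. Others were named after their values were seen. Alternatives were other peak lists, either replicate alone, other distances, overlaps and windows, and strata of signal and GC content. The members, lists and tests were chosen with earlier results of these data known.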

Additional observations from a re-analysis of the deposited data

How the results depend on the processing

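No paired analysis was possible because the 2 libraries form 1 group. In the stronger 50% of all regions the desert share was 9.19%, the density ratio 0.228, the log2 difference of median signal 0.035 and the 10 fullest deserts held 234 regions, against 416 in the main list. At more than 50 kb the share was 14.3%, the ratio 0.266 and the signal difference 0.038, and at more than 200 kb 3.68%, 0.135 and 0.091. Outside genes of any biotype the share was 6.43% and the ratio 0.183. Without gaps that hold receptor segments, an alternative added after seeing the data, the share was 7.77%. With 1 replicate's own list in turn, the share was 7.32% to 7.56%, the ratio 0.178 to 0.184, the signal difference 0.072 to 0.094 and the fullest deserts held 203 to 292; the replicated peaks list gave 788. The call of lower recurrence was lost for replicate 1 in the pseudoreplicated lists (log2 odds -0.29, Fisher's exact p = 0.0664) and within 10 classes of -log10 p (-0.024), and for replicate 2 in the series list (-0.073, exact p = 0.119); within 10 classes of -log10 p it was 0.017 for replicate 2. For replicate 1's own list found in replicate 2 (main 0.0047), the log2 odds were -0.034 and -0.094 beyond 50 and 200 kb, -0.0077 outside genes of any biotype, -0.23 in the pseudoreplicated lists, -0.35 within 10 classes of signal and -0.14 with equally many of the strongest regions of both replicates. For replicate 2's own list (main 0.016), they were -0.076 beyond 50 kb, -0.29 in the pseudoreplicated lists, -0.31 within 10 classes of signal and 0.48 with equally many (Fisher's exact test, p = 2.6e-08). The cause of these changes was not tested. IRF passed in 6 of 11 alternatives, REST in 5, and PU.1 with IRF and HOX with MEIS in 9 each, all without a change of direction. Of 40 named deserts with 10 or more regions, counts stayed within 1.5 times in 40 with the series list, in 39 without repeated and mitochondrial summits, in 31 with no distance limit, in 23 with replicate 1's own list, in 9 with that of replicate 2, in 8 in the stronger 50% of regions and in 0 with the replicated peaks list. What the unknown depth limits cannot be told from these lists.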
